A study of Mus musculus with 6 samples.

Results

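Among the genes of KIT+Gr1+ leukemia cells, 10 protein-coding genes were read in all 3 *Hoxa9*/MTV mice and had between 0 and 29 reads in the 3 *Hoxa9*/*IRX3* mice: *Zbtb16*, *Stxbp6*, *Ptpro*, *Sulf2*, *Glis2*, *Rnase6*, *Mst1r*, *Nr0b2*, *Clcf1* and *Rtn4rl1*. They are 10 of the 41128 genes listed, and they were chosen by these values, so the difference between the cohorts is described and not tested. Both cohorts were female mice, labelled C57BL/6, with acute myeloid leukemia (AML) started by retroviral *Hoxa9* in donor KIT+ bone marrow (BM) progenitors, which also carried either the empty vector MTV or a human *IRX3* cDNA. Donor cells (CD45.1+; the methods name B6.SJL-*Ptprc* a *Pepc* b/BoyJ as the CD45.1+ strain and C57BL/6 as the CD45.2+ one) were drug-selected in culture and transplanted into irradiated congenic recipients, and KIT+Gr1+ donor cells were sorted from thawed BM of sick mice. Each library came from 1 mouse (1.1, 1.2 and 1.4 against 3.2, 3.3 and 3.5). The paper reports a later onset of AML with *IRX3* than with MTV. Mice were sampled when sick, so time since transplant may differ with the vector and cannot be told apart from it. The age of each mouse at sampling is not given. *Hoxa9* and *IRX3* were expressed from viral promoters and not from their own loci, and the sources do not say how many clones a leukemia held.

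HOXA9 and IRX3 are homeodomain transcription factors. HOXA9 sustains self-renewal of blood stem and progenitor cells. IRX3, a member of the Iroquois family, acts in limb, heart and nervous system development. The paper reports very low *IRX3* transcript levels in normal BM cells. The 10 genes belong to no single pathway. By role, 3 groups can be named: transcription regulators (*Zbtb16*, *Glis2* and *Nr0b2*), proteins of the cell surface (*Mst1r*, *Ptpro* and *Rtn4rl1*), and proteins that are secreted or act in secretion and at the cell exterior (*Clcf1*, *Sulf2*, *Rnase6* and *Stxbp6*).

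Libraries held between 7979246 and 9803621 reads. Mouse *Irx3* had 0 reads in every *Hoxa9*/MTV library and 454, 14 and 4 reads in mice 3.2, 3.3 and 3.5, but the vector carried a human cDNA, so these reads on the mouse gene are no measure of its level. *Hoxa9*, whose vector both cohorts carried, had 292 ± 103 reads per kilobase per 1000000 reads (RPKM; SD, n = 3) with MTV, against 206 ± 45.9 with *IRX3* (limma adjusted p = 0.420). Of the sorted antigens, *Kit* was read in every library (1307 to 2259 reads), as was *Ly6c2*, a Gr1 antigen, with 413 to 844 RPKM. The other Gr1 antigen, *Ly6g*, had 5, 4 and 2 reads against 49, 26 and 35, a log2 difference of 1.35 ± 0.20 (SE; limma adjusted p = 0.0205). In fits that left out 1 mouse, the limma adjusted p of *Ly6g* reached up to 0.103. *Mpo*, the granule enzyme of early granulocytic cells, was high in both cohorts at 620 ± 135 and 1000 ± 172 RPKM (SD, n = 3 each).

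The genes lie on 9 chromosomes, and only *Zbtb16* and *Mst1r* share one. In GRCm38, with GENCODE M21 gene bounds, *Zbtb16* spans chr9:48654297-48836222 on the minus strand and *Mst1r* chr9:107906873-107920383 on the plus strand. *Stxbp6* spans chr12:44852484-45074709 and *Sulf2* chr2:166073089-166155663, both on the minus strand. *Ptpro* (chr6:137252319-137463233), *Rnase6* (chr14:51123908-51132187), *Nr0b2* (chr4:133553376-133556536), *Glis2* (chr16:4594713-4624924), *Clcf1* (chr19:4214238-4223490) and *Rtn4rl1* (chr11:75193783-75267769) are on the plus strand. Their spans run from 3161 bases (*Nr0b2*) to 222226 bases (*Stxbp6*), of which merged exons cover between 2.38% (*Stxbp6*) and 41.1% (*Clcf1*).

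RefSeq promoters on GRCm38.p6 were at hand for 6 of the 10 genes, *Stxbp6*, *Ptpro*, *Rnase6*, *Mst1r*, *Sulf2* and *Nr0b2*. The 250 bases before the start site of 4 of them are given 5′ to 3′ on the strand of the gene, as the 3 with the most reads and the 1 with a TATA box near its start. Capitals mark CG dinucleotides, and in *Nr0b2* also the TATA box. The windows are chr12:45074484-45074733 (minus strand) for *Stxbp6*, chr6:137252049-137252298 (plus) for *Ptpro*, chr14:51123658-51123907 (plus) for *Rnase6* and chr4:133553126-133553375 (plus) for *Nr0b2*.
Stxbp6: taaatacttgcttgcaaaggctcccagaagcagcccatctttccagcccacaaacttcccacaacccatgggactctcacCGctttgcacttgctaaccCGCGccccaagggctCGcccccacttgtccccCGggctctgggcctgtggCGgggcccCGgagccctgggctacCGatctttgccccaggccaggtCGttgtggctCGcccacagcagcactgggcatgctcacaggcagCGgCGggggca
Ptpro: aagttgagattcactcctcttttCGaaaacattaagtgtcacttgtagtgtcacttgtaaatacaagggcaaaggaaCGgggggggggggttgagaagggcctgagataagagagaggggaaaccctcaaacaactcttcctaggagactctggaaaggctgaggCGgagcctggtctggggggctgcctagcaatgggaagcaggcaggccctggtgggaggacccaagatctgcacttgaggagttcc
Rnase6: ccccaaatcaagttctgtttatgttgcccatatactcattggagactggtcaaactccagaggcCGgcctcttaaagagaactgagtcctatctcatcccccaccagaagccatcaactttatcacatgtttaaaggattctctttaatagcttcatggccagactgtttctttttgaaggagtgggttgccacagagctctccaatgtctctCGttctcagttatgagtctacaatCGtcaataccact
Nr0b2: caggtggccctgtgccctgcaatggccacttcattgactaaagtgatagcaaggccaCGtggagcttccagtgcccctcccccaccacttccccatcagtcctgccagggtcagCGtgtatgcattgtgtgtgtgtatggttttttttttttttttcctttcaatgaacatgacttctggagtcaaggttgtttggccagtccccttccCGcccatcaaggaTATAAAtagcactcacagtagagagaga

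The first starts of all 6 genes had a low to moderate content of CG dinucleotides. The ratio of observed to expected CG dinucleotides was 0.47 in *Stxbp6*, with 12 of them, and 0.18, 0.26 and 0.19 in *Ptpro*, *Rnase6* and *Nr0b2*, with 3 each. It was 0.34 at the first start of *Mst1r* and 0.50 at that of *Sulf2*, while a second *Sulf2* start stood at 0.98, higher than 93.4% of promoters. The median over all 32851 promoters was 0.37, and 34.0% had a ratio over 0.6, which 0 of the 6 first starts passed. The TATA box, TATAAA on either strand, was present in 12.4% of promoters and in 2 of these 6, at 28 bases before the start of *Nr0b2* and 244 before that of *Sulf2*. Letters searched on both strands for factors of these cells were ACANNTGT for Iroquois proteins (6.31% of promoters), TGACAG for MEIS proteins (15.9%), TGATTTAT for HOXA9 with PBX (0.837%) and GAGGAAGT for PU.1 (2.44%). None of these 4 runs of letters was found in the 6 windows.

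*Hoxa9*/MTV libraries held 1528, 1484 and 1611 reads on the 10 genes together, or 173, 179 and 167 per 1000000 library reads (RPM). The *Hoxa9*/*IRX3* libraries held 23, 28 and 53, or 2.60, 2.86 and 6.64 RPM. Every gene had at least 22 reads in every *Hoxa9*/MTV library. The cohorts overlapped for none of the 10, which follows from how the genes were chosen, so nothing is read from it. In mouse 3.2, 4 genes had no read, in mouse 3.3 there were 2 such genes and in mouse 3.5 there were 4. No *Hoxa9*/MTV mouse was highest for most of the genes: mouse 1.1 was highest for 3, mouse 1.2 for 5 and mouse 1.4 for 2.

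**Figure D1:**
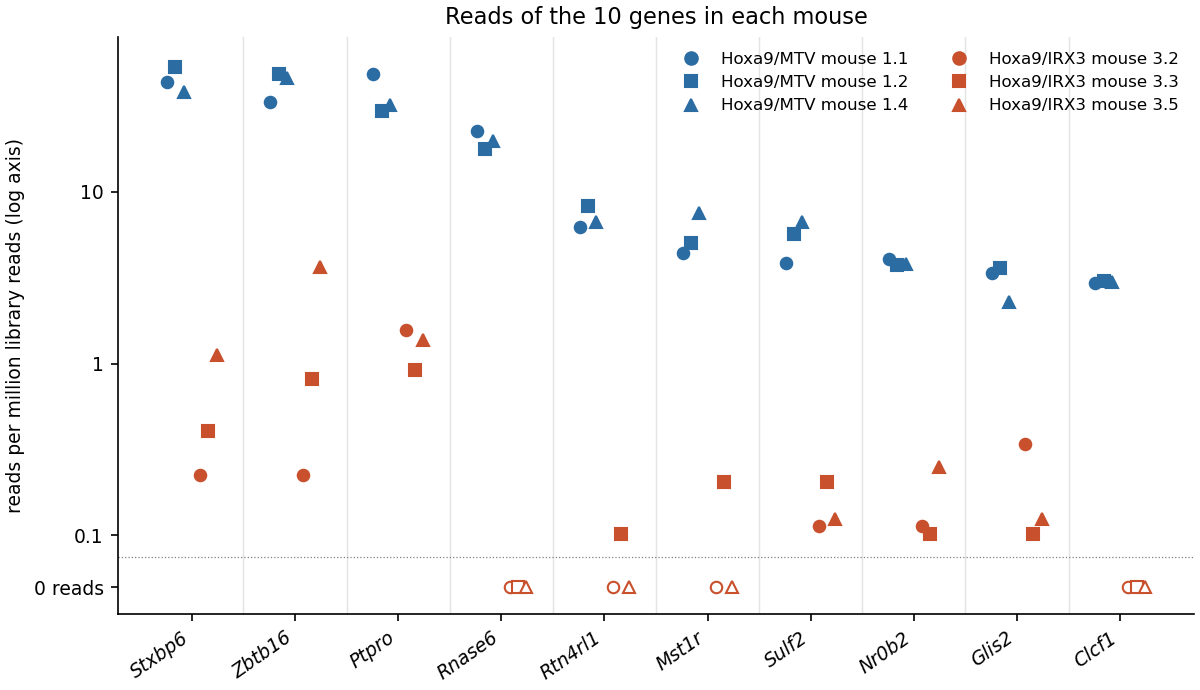
RPM of the 10 genes, on a log axis, in each of 3 *Hoxa9*/MTV (blue) and 3 *Hoxa9*/*IRX3* mice (red), with 1 point per mouse and open points below the dotted line for 0 reads. Every blue point lies above every red point of the same gene, and the highest red point is *Zbtb16* in mouse 3.5, with 29 reads.

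With near 0 taken as at most 3 reads in each *Hoxa9*/*IRX3* library and over 3 in each *Hoxa9*/MTV library, 7 of the 10 genes qualified, against 86 of 10927 protein-coding genes over 3 reads in every *Hoxa9*/MTV library (0.787%). These are the values the genes were chosen by, so nothing is read from that share. The 3 others, *Zbtb16*, *Stxbp6* and *Ptpro*, had the most *Hoxa9*/MTV reads (1143, 1196 and 989) and kept 39, 15 and 34 reads in the other cohort. Nearest to the limit, *Glis2* reached 3 reads in mouse 3.2 on its inner side, and *Stxbp6* had 4 in mouse 3.3 and 9 in mouse 3.5 on its outer side. Folds below compare reads pooled over each cohort, with a 95% interval for counting error only. That interval covers neither mouse-to-mouse spread nor copies made in amplification.

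Of the transcription regulators, *Zbtb16* (PLZF), a BTB zinc finger repressor that partners RARA in a fusion of acute promyelocytic leukemia, had 294, 404 and 445 reads in mice 1.1, 1.2 and 1.4. In mice 3.2, 3.3 and 3.5 it had 2, 8 and 29. Reads were 29.1-fold higher in *Hoxa9*/MTV (21.2 to 41.2), and mouse 3.5 alone held most of what was left. Without it the fold was 79.5. *Glis2*, a zinc finger factor known from the CBFA2T3-GLIS2 fusion of childhood megakaryoblastic leukemia, had 30, 30 and 22 reads against 3, 1 and 1. This was 16.3-fold (6.70 to 51.5), the smallest ratio of the 10, and 27.2-fold without mouse 3.2. *Nr0b2* (SHP), a nuclear receptor that lacks a DNA-binding domain and represses other receptors, had 36, 31 and 37 reads against 1, 1 and 2. Its 3 *Hoxa9*/MTV values lay close together, at 1.23 ± 0.0554 RPKM (SD, n = 3), and the fold was 25.8 (9.79 to 96.6).

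Of the surface proteins, *Ptpro*, a receptor tyrosine phosphatase, had 430, 247 and 312 reads against 14, 9 and 11. Of the 3 genes with the most reads left in *Hoxa9*/*IRX3* mice (*Zbtb16*, *Ptpro* and *Stxbp6*), it was the most evenly retained. The other genes kept at most 5 pooled reads, too few to compare evenness. *Ptpro* stood at 0.00609 ± 0.00160 RPKM (SD, n = 3) against 0.174 ± 0.0483, and the fold was 28.9 (20.5 to 42.0). *Mst1r* (RON), the receptor tyrosine kinase for macrophage-stimulating protein, had 39, 42 and 73 reads against 0, 2 and 0. Only mouse 3.3 held any read of the second cohort. The ratio was 76.5-fold (20.8 to 637), and at least 32.2-fold without mouse 3.3, against 3 reads over the 2 mice left. *Rtn4rl1*, a lipid-anchored relative of the Nogo receptor best known in neurons, had 55, 69 and 65 reads against 0, 1 and 0. A single read in mouse 3.3 set its ratio of 188-fold (33.3 to 7454), and without that mouse it was at least 39.6-fold.

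Of the secreted and secretory genes, *Rnase6*, an antimicrobial ribonuclease of phagocytes, had 200, 148 and 192 reads and not 1 read in any *Hoxa9*/*IRX3* library. Against 3 reads over the cohort it was at least 179-fold higher in *Hoxa9*/MTV, and at least 113-fold without mouse 3.3, since the limit moves with the reads that are left. *Clcf1*, a cytokine of the interleukin-6 family that signals through the ciliary neurotrophic factor receptor, had 26, 25 and 29 reads against 0, 0 and 0. It was at least 26.5-fold higher (at least 16.7-fold without mouse 3.3), a bound set by its low read number. *Sulf2*, which trims sulfate from heparan sulfate outside the cell, had 34, 47 and 65 reads against 1, 2 and 1, a ratio of 36.3-fold (13.9 to 135). *Stxbp6* (amisyn), which binds syntaxins and so modulates vesicle fusion, had 384, 441 and 371 reads against 2, 4 and 9. The fold was 79.2 (47.8 to 142), and 139 without mouse 3.5, the mouse with the most reads left, as for *Zbtb16*.

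These genes were expressed at low to moderate levels in *Hoxa9*/MTV cells. The deposited RPKM divide by the whole gene span, introns included, which puts long genes low. Levels were therefore compared between genes on all reads of a gene per kilobase of merged exons per 1000000 reads. Reads in introns, if counted, could not be taken out, so long genes may stand too high on this scale. On this scale *Stxbp6* stood at 8.49 ± 1.41 (SD, n = 3), *Zbtb16* at 8.07 ± 1.56 and *Rnase6* at 7.53 ± 0.903, and the values of these 3 overlapped. *Ptpro* followed at 5.48 ± 1.53, and its highest mouse (7.23) lay above the lowest of *Zbtb16* (6.29) and *Rnase6* (6.68) but below that of *Stxbp6* (7.24). *Nr0b2* (3.42 ± 0.155), *Rtn4rl1* (2.01 ± 0.309) and *Mst1r* (1.13 ± 0.331) came next without overlap between neighbours in this order. *Sulf2* (0.921 ± 0.248) overlapped with *Mst1r*, *Clcf1* (0.784 ± 0.00981) and *Glis2* (0.707 ± 0.164). The mean of *Stxbp6* was above that of 73.3% of all protein-coding genes listed, and that of *Glis2* above 51.0%. The listed genes number 21397, of which 14755 had a read, so genes without a read count as lower. In *Hoxa9*/*IRX3* cells the means ran from 0 for *Rnase6* and *Clcf1* to 0.295 for *Zbtb16*.

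**Figure D2:**
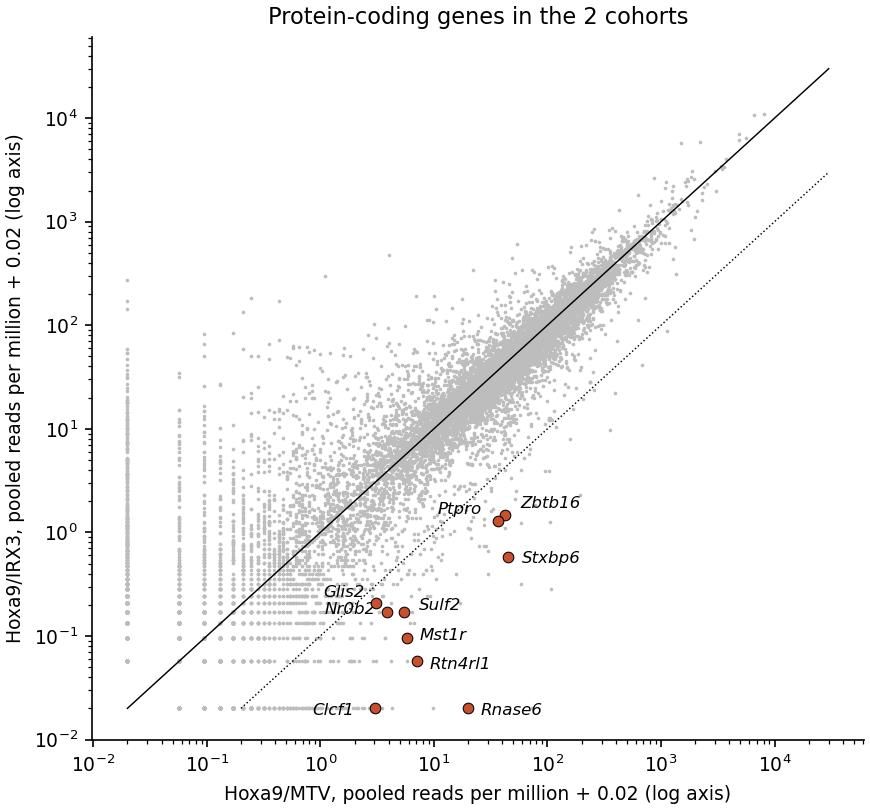
Pooled RPM of each protein-coding gene with a read in *Hoxa9*/MTV (x axis) and *Hoxa9*/*IRX3* mice (y axis), each with 0.02 added and on a log axis. The solid line marks equal values and the dotted line a 10-fold lower value in *Hoxa9*/*IRX3*. The 10 genes (red) all lie below the dotted line, with *Rnase6* and *Clcf1* on the floor of 0 reads.

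On log2(RPKM + 0.5), the scale of the test across genes, the 10 genes differed by -2.55 (*Rnase6*) to -0.17 (*Sulf2*), *Hoxa9*/*IRX3* minus *Hoxa9*/MTV, with a median of -0.51 beside -0.06 over the 9522 protein-coding genes tested. The pseudocount exceeds the level of most of them and understates their change. Only 3 of the 10 (*Rnase6*, *Nr0b2* and *Mst1r*) passed 0.5 RPKM in any library, the threshold for testing, and the other 7 were outside the test.

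The same 3-read limits were met by 2 genes with more reads than any of these 10. *Igf2bp3*, which encodes a fetal RNA-binding protein, had 977, 996 and 938 reads against 3, 1 and 3. *Meis1*, the homeodomain partner of HOXA9, had 408, 398 and 1174 reads against 0, 0 and 0. Next to them in reads, all from this same contrast and so untested, were *Kcng1* (178 pooled *Hoxa9*/MTV reads), *Slc9a7* (171), *Gm8369* (164), *Mzb1* (154), *Ms4a4b* (145), the annotated microRNA locus *Gm15987* (120), *Gpr174* (114) and *Tmem26* (112). Of the 86 protein-coding genes, 20 had no read in any *Hoxa9*/*IRX3* library, among them *Rnase6* and *Clcf1*. The median over the 86 was 46.0 pooled *Hoxa9*/MTV reads, below every one of the 10 genes. The opposite pattern, with at most 3 reads in each *Hoxa9*/MTV library, was met by 138 of 10714 protein-coding genes (1.29%).

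Genes next to the 10 loci were tested, because the choice did not use them. Of the 20 nearest protein-coding neighbours, 1209 to 1619808 bases away, 12 passed the expression threshold. A call required a limma adjusted p (Benjamini-Hochberg over the 9522 genes) under 0.05 and at least a 2-fold difference. None of the 12 was called, where 298 of all 9522 genes were (3.13%), 4 of the 12 had an unadjusted p under 0.05 (33.3%, beside 24.3% of the 9522 genes), and limma voom on the recovered reads also called 0. The tested neighbours had a median log2 difference of -0.11. Among the untested ones, *Nova1*, *Htr3a*, *Rnase1*, *Eddm3b* and *Actl11* had no read in any library, *Nrcam* and *Rerg* had at most 8, and *Eps8* had 39, 9 and 28 against 18, 2 and 127.

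All 4 were lower in *Hoxa9*/*IRX3* cells. *Coro7*, an actin regulator of the Golgi that lies 1209 bases from *Glis2*, came nearest to a call. It had 8.09 ± 0.0816 RPKM (SD, n = 3) against 4.08 ± 0.656, a log2 difference of -0.92 ± 0.14 (SE; limma adjusted p = 0.0194), short of 2-fold. *Prex1*, a Rac exchange factor 410679 bases from *Sulf2*, differed by -0.90 ± 0.19 (adjusted p = 0.0498, limma), with 75 reads in mouse 3.5 against 450 and 538 in mice 3.2 and 3.3. *Pold4* beside *Clcf1* (-0.87, limma adjusted p = 0.150) and *Tfap4* beside *Glis2* (-0.45, limma adjusted p = 0.109) did not pass. Without mouse 3.3, *Coro7*, *Prex1* and *Pold4* were called lower, so the count of 0 among neighbours rests on that mouse. They were 3 of 11 neighbours tested in that fit, beside 393 of 9371 genes. The other neighbours of expressed loci, *Rpa1* and *Dph1* (*Rtn4rl1*), *Mon1a* (*Mst1r*), *Zmynd8* (*Sulf2*), *Gpatch3* and *Nudc* (*Nr0b2*) and *Rad9a* (*Clcf1*), had log2 differences between -0.37 and 0.10 and overlapping cohorts. *Dph1*, a minus-strand gene that starts 2542 bases from the start of *Rtn4rl1* and runs away from it, had 291, 227 and 341 reads against 264, 310 and 215.

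**Figure D3:**
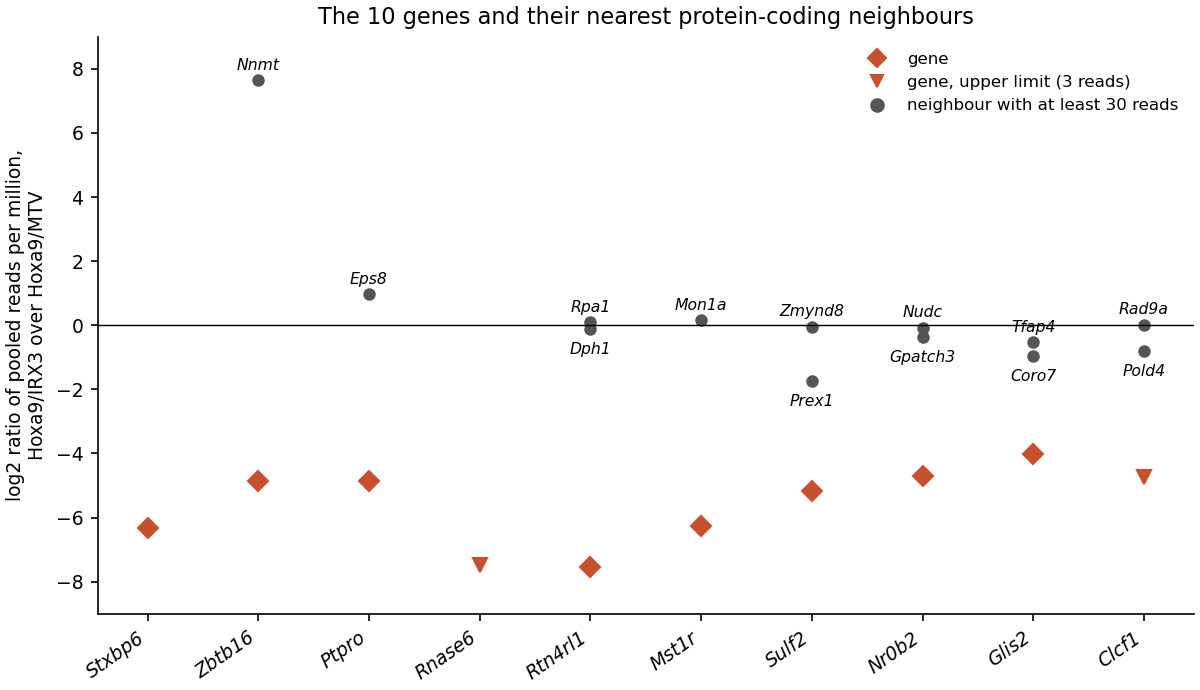
Log2 ratio of pooled RPM, *Hoxa9*/*IRX3* over *Hoxa9*/MTV, for the 10 genes (red; triangles are upper limits at 3 reads) and those of their nearest protein-coding neighbours with at least 30 reads (grey). The 10 genes lie between -7.55 and -4.03, and 11 of the 13 neighbours between -1.73 and 0.15. The exceptions are *Eps8* at 0.96 and *Nnmt* at 7.65.

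*Nnmt*, next to *Zbtb16*, went the other way in some mice only. It had 1, 0 and 1 reads against 19, 380 and 0, so the cohorts overlapped and the difference did not pass the test (log2 difference 1.04 ± 0.69, limma adjusted p = 0.386). Of the 4 annotated genes that overlap a member on the opposite strand, 2 were well read in both cohorts and the other 2, a microRNA locus and a pseudogene, had no read. *Ncoa3*, which overlaps *Sulf2*, had 1240, 1082 and 1247 reads against 921, 1001 and 379, and *Pam16*, which overlaps *Glis2*, had 102, 48 and 187 against 93, 154 and 79. The libraries were strand-specific, but whether counting used strand is not given in the sources used here, so single reads left on *Sulf2* or *Glis2* in *Hoxa9*/*IRX3* mice may belong to these partners.

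Relatives and partners of the 10 genes were taken from 10 lists of 128 genes, of which 127 were listed and 64 passed the threshold. Of these 64, 4 were called lower and 0 higher (6.25%, beside 3.13% of all genes), 22 had an unadjusted p under 0.05 (34.4%, beside 24.3%), and the median log2 difference was -0.03 beside -0.06. Which genes were called moved with the method: voom called *Met*, *Osm*, *Extl3* and, as higher, *Glce*, a pseudocount of 0.1 gave *Met*, *Osm* and *Glce*, a pseudocount of 1 gave *Il6ra*, *Nr4a1* and *Osm*, and no filter on low values gave *Met* and *Osm*. The lists were drawn up with results of these data known. In the list of *Clcf1*, 2 of 6 tested genes fell. *Il6ra*, which encodes the interleukin-6 receptor chain, had 2218, 1921 and 2120 reads against 829, 912 and 240 (log2 difference -1.53 ± 0.31, limma adjusted p = 0.0447). *Osm*, the cytokine oncostatin M, had 180, 150 and 274 reads against 89, 71 and 55 (-1.23 ± 0.20, limma adjusted p = 0.0232). *Cntfr*, which encodes a chain of the receptor for CLCF1, had no read in any library. *Il6st* (gp130), the shared signaling chain, differed by -1.30 without passing (adjusted p = 0.200, limma). It had 1322, 1046 and 1340 reads against 234, 1366 and 94, and it was called lower in the fit without mouse 3.3.

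For *Mst1r*, its closest relative *Met*, the hepatocyte growth factor receptor, fell as well, with 1158, 919 and 984 reads against 53, 392 and 188 (log2 difference -1.13 ± 0.19, limma adjusted p = 0.0271). Its ligand *Mst1* had 60, 21 and 24 reads against 224, 251 and 47, a log2 difference of 1.64 that did not pass (limma adjusted p = 0.122). *Mst1* was called higher in the fit without mouse 3.5. For *Nr0b2*, the nuclear receptor *Nr4a1*, an immediate early gene, fell with 162, 294 and 477 reads against 54, 63 and 0 (-1.49 ± 0.30, limma adjusted p = 0.0417), and the other 4 tested receptors of its list did not pass. None of the 4 called genes overlapped between cohorts, which with 3 mice against 3 largely follows from the call and adds nothing to it. All 4 lost their call when any 1 of the 3 *Hoxa9*/MTV mice was left out. Of the 3 settings that left out 1 *Hoxa9*/*IRX3* mouse, *Il6ra* was called in 3, *Osm* in 2, *Met* in 1 and *Nr4a1* in 0.

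**Figure D4:**
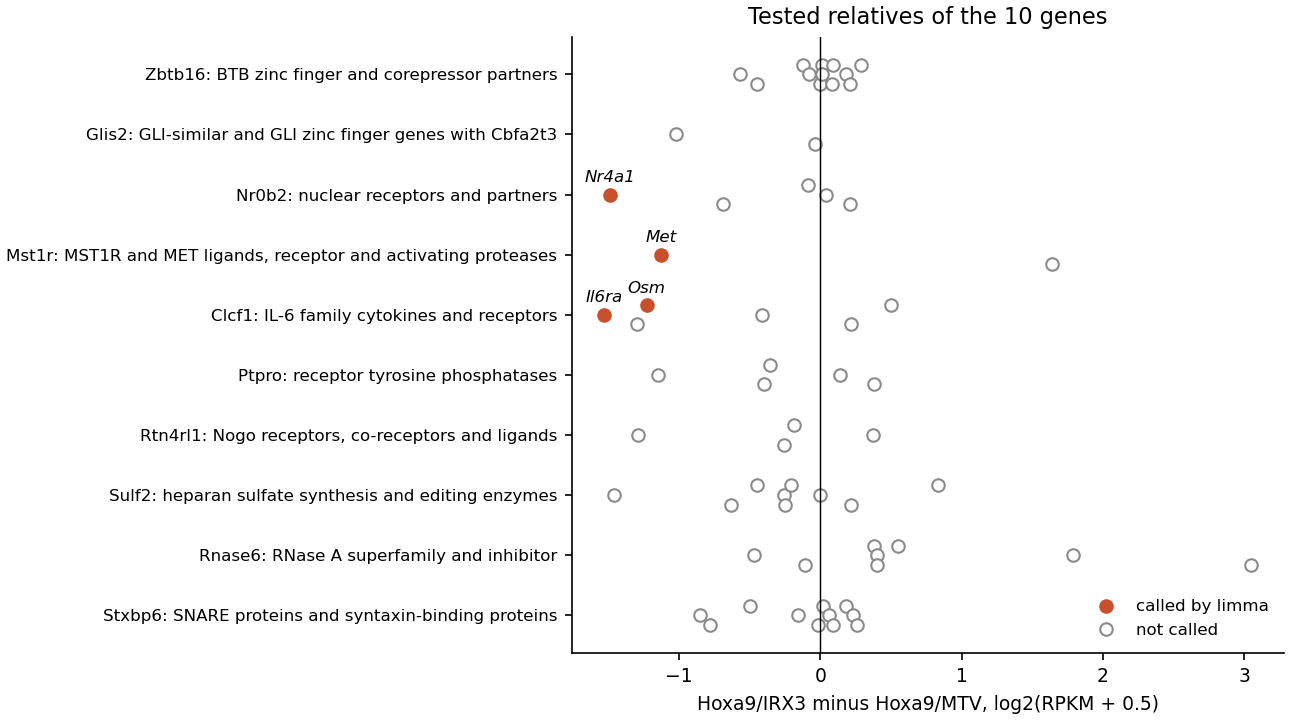
Log2 differences, *Hoxa9*/*IRX3* minus *Hoxa9*/MTV on log2(RPKM + 0.5), of the 64 tested relatives by list, with 1 point per gene, filled where limma called it. The 4 filled points are *Nr4a1*, *Met*, *Il6ra* and *Osm*, between -1.53 and -1.13. The point farthest right, at 3.05, is *Rnase10*.

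In the other 7 lists limma on all 6 libraries called no gene, while limma voom on the recovered reads called *Extl3* lower and *Glce* higher, both of the *Sulf2* list, and a pseudocount of 0.1 also called *Glce*. Fits without 1 *Hoxa9*/*IRX3* mouse called *Rnase10* and *Rnase4* (without 3.2), *Ptprs* (without 3.3) or *Mag*, *Rnase2a* and *Stx3* (without 3.5). For *Zbtb16*, its 12 tested corepressors and BTB zinc finger relatives ranged from -0.57 to 0.29, and *Zbtb7a*, the highest of them in RPKM over the gene span, stood at 11.3 against 11.4 RPKM. *Cbfa2t3*, which joins *Glis2* in the leukemia fusion, had 1203, 595 and 1198 reads against 289, 18 and 839 (-1.02, limma adjusted p = 0.242). For *Rnase6*, *Rnase10* had 4, 9 and 6 reads against 27, 412 and 236. These groups did not overlap, and the log2 difference of 3.05 ± 0.80 did not pass (limma adjusted p = 0.0783). The genes of the remaining lists with the highest RPKM, a scale that divides by the gene span and so puts long genes low, *Ptprs* (-1.15, adjusted p = 0.0530), *Rtn4* (-0.19, adjusted p = 0.461), *Ndst2* (-0.45, adjusted p = 0.170) and *Vamp2* (-0.78, adjusted p = 0.0653), did not pass either in limma.

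Markers of other cell types were set beside these losses, since fewer cells of a type and less RNA per cell cannot be told apart in bulk samples. For mast cells and basophils, 4 of 6 markers were tested and 2 (*Gata2* and *Cpa3*) fell. Of the other 2, *Mcpt8* differed by -1.21 (limma adjusted p = 0.0621) and *Ms4a2* by 0.66, with 21, 19 and 43 reads against 79, 49 and 61 (limma adjusted p = 0.103). The summed level of this list was 14.5 to 20.3 RPKM in *Hoxa9*/MTV and 4.51 to 7.31 in *Hoxa9*/*IRX3* libraries, and the defining marker *Fcer1a* was at 0 in all of them. For B cells, *Cd79b* fell as 1 of 2 tested of 7 markers, while the other, *Vpreb1*, had 2, 1 and 4 reads against 5, 9 and 53 (log2 difference 1.08, limma adjusted p = 0.272), with sums of 6.35 to 7.30 against 0.652 to 5.03 RPKM, and *Pax5* and *Ms4a1* were at 0. For dendritic cells, *Flt3* fell as 1 of 3 tested of 9, with sums of 9.95 to 11.8 against 9.03 to 15.7 RPKM and none of the markers at 0 throughout. *Bst2* set most of these sums, with 7.98 to 10.7 against 8.92 to 15.2 RPKM. *Bst2* and *Tcf4*, the other tested markers, differed by 0.21 and 0.04 and did not pass. Under the threshold, *Siglech* had 26, 15 and 12 reads against 0, 0 and 1, and *Cd209a* 14, 1 and 3 against 0, 0 and 0. The remaining markers had at most 14 reads in any library. For macrophages, *Vcam1* rose as 1 of 2 tested of 5 listed markers, with sums of 2.01 to 3.22 against 15.6 to 49.4 RPKM. *Vcam1* alone set these sums, with 1.99 to 3.21 against 15.6 to 49.3 RPKM. *C1qa*, *C1qb* and *Mrc1* reached at most 0.792 RPKM in any library, and *Marco* was at 0. *Emr1* is the older symbol of *Adgre1*, the 1 planned macrophage marker of 6 that was not matched by name, so it is outside these counts and sums. It was lower with *IRX3*, at 46.7 against 24.2 RPM, given only as 1 pooled value per cohort without spread or test. A change in macrophage number is therefore not read from the sums. The called markers depended on single mice. Of the 6 fits that left out 1 mouse, *Flt3* was called in 4, *Gata2* and *Vcam1* in 3 each, and *Cpa3* and *Cd79b* in 1 each.

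In the T, NK and innate lymphoid list, in which *Zbtb16* is known to act, 1 of 10 markers was tested and it did not pass, and the sums were 22.7 to 33.0 against 14.9 to 482 RPKM. They were set by *Nkg7*, while *Cd3d*, *Trac*, *Ncr1* and *Tbx21* were at 0 in all libraries. In the eosinophil and erythroid lists 0 genes passed the threshold for testing, so none could be called. Neither the 2 tested megakaryocyte markers nor the 1 tested stromal marker was called. Erythroid, megakaryocyte and stromal sums were at most 0.303, 12.8 and 6.35 RPKM. Eosinophil sums were 0.107 to 0.424 against 0 to 0.0395 RPKM. They came from *Prg2* alone, with 3, 10 and 13 reads against 1, 0 and 1. The part of any of these cells in the loss of the 10 genes was not tested.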

How the data were processed

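The authors made strand-specific polyA libraries, sequenced paired ends, aligned them to GRCm38 (Bowtie2 2.2.1), filtered alignments (SAMtools 0.1.19) and deposited RPKM (reads per kilobase per 1000000 mapped reads) for 41128 genes, dividing by the whole gene span. GENCODE M21 gave type, bounds and exon length of 40254 genes. Library sizes (7979246 to 9803621 reads) and reads per gene were recovered from the steps between low RPKM. Of 14755 protein-coding genes with a read, 66.5% gave whole reads in all libraries (within 0.001 of a read) on the annotated span and 98.3% once the span was allowed to differ by up to 1.3 times. Reads summed over genes to 104% to 105% of the library size.

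Protein-coding genes over 0.5 RPKM in at least 1 library (9522) were tested with limma 3.58.1 in R 4.3.3 on log2(RPKM + 0.5) with a variance trend. On data simulated for this comparison with 200 genes changed 4-fold, of which 195 were among the 9211 that passed the filter, 160 were called, and so were 5 unchanged genes. The simulation gave all genes and both cohorts 1 fixed spread. It therefore does not measure how many real changes the test would find. Each cohort was 3 mice with 1 library each, so p-values measure the spread between these mice. With 3 against 3, an exact permutation test cannot go below a p of 0.1, and none was run. Counting intervals are exact binomial (95%, scipy 1.17.1). Promoters are RefSeq's. The 10 genes and all lists were chosen with earlier results of these data known. Named genes are the 10, their nearest neighbours, the called or else most expressed gene of each list, the 10 other genes with most reads that met the same limits, and checks of the labels and of the sorted cells. Other genes and markers named were chosen after their values were seen. Alternatives were other pseudocounts, filters, scaling, gene length, read limits, voom and leaving out each mouse. Leaving each mouse out of the folds of the 10 genes was added after seeing the data.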

Additional observations from a re-analysis of the deposited data

How the results depend on the processing

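The number of the 10 genes that met the 3-read limit was 7, and it was 3 at a limit of 1 read, 7 at 5 and 8 at 10 and stayed at 7 without any 1 mouse. The median log2 difference of the 10 genes was -0.51, and it moved with the scale, to -1.59 with a pseudocount of 0.1, -0.28 with 1 and -2.46 on the length of merged exons, and was between -0.53 and -0.47 without any 1 mouse. Every pooled fold of the 10 genes kept its direction in the 60 settings that left out 1 mouse and was at least 12.9. The count of neighbours called was 0 in all settings but 1, the fit without mouse 3.3, so that it ranged from 0 to 3 over the settings without 1 mouse. The count of relatives called was 4, 2 with no filter on low values, and 0 to 5 without 1 mouse. Over all genes 298 were called, 175 with no filter, and between 61 and 415 without 1 mouse, with 76, 66 and 61 where *Hoxa9*/MTV mouse 1.1, 1.2 or 1.4 was left out. Leaving out a mouse leaves fewer samples, and the cause beyond that was not tested. No paired analysis was possible because the cohorts share no mouse number. Depth limits *Clcf1* and *Glis2* most, with 80 and 82 pooled *Hoxa9*/MTV reads.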

Other observations

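Some relatives of the 10 genes lay under 0.5 RPKM on the scale that divides by the whole gene span, and so were outside the test. Of the 19 of them with at least 30 reads, the cohorts did not overlap for 10 (52.6%), beside 33.1% of the 2412 protein-coding genes under the threshold with as many reads. In the limma fit with no filter on low values 3 had an adjusted p under 0.05 (15.8%, beside 4.31% of those 2412), all short of 2-fold on log2(RPKM + 0.5). They were chosen after their values were seen.

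*Lifr*, the leukemia inhibitory factor receptor chain through which CLCF1 signals together with gp130, had 176, 236 and 396 reads in mice 1.1, 1.2 and 1.4 and 4, 0 and 6 in mice 3.2, 3.3 and 3.5. Pooled reads were 80.3-fold higher in *Hoxa9*/MTV, the same pattern as the 10 genes (log2 difference -0.51, adjusted p = 0.0429 in limma with no filter). *Glis3*, a paralog of *Glis2*, went the opposite way to it, with 157, 89 and 142 reads against 1401, 1361 and 1136, or 10.1-fold higher in *Hoxa9*/*IRX3* (log2 difference 0.67, adjusted p = 0.00318 in limma with no filter). *Ptprm*, another receptor tyrosine phosphatase, also went opposite to *Ptpro*, with 76, 11 and 5 reads against 271, 408 and 397, or 11.8-fold higher (0.15, adjusted p = 0.0396 in limma with no filter). *Hnf4a*, a nuclear receptor of the *Nr0b2* list, had 49, 18 and 191 reads against 7, 0 and 4 and did not pass (adjusted p = 0.326 in limma with no filter).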
